A study of Bos taurus with 31 samples.

Results

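The virgin mammary organoids of 15 dairy cows were ranked by a score of the messenger RNA of 12 cell division genes, and the classes were chosen by that measured score: the 5 highest-ranking libraries (here the high class) were set against the 5 lowest-ranking (the low class). These 10 libraries come from a series of 31, made of 15 libraries of virgin heifers biopsied at the age of 14 months and 16 libraries of cows in milk, biopsied between days 40 and 60 of lactation. The cows numbered 16, and 15 of them gave a library at both stages. The organoids are clumps of epithelial cells that remain when a gland biopsy is digested with collagenase, trypsin and hyaluronidase and single cells are spun away, so other cell types may remain attached. Both classes consist of virgin animals of the same age with no treatment in the labels, and the classes exist only because the score was measured. Each library is named by its stage, V for virgin and L for lactating, and by the number of its animal.

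The score was the mean over TOP2A, CDK1, CCNB1, CCNB2, CCNA2, BUB1, AURKA, PLK1, RRM2, TPX2, NUSAP1 and FOXM1 of log2 CPM, where CPM, the usual scaled count, is a gene's count over the library total after TMM adjustment (trimmed mean of M-values). All 12 genes had a row in the count table. Most of these transcripts build up in a cell only while it copies its DNA and divides. Cyclins activate the kinase CDK1 at the entry into mitosis, the transcription factor FOXM1 drives many of the genes, kinases such as PLK1, AURKA and BUB1 run the spindle and its checkpoint, and TOP2A untangles the chromosomes. In the growing gland of a heifer, ducts extend and branch by division of epithelial cells, and the surrounding stroma grows with them.

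In order, the high class held V502 with a score of 3.27, V509 with 3.18, V581 with 2.30, V598 with 2.12 and V538 with 1.95. The low class held V504 with 1.43, V507 with 1.31, V479 with 1.19, V531 with 0.96 and V478 with 0.49. V502 and V509 stood well above the other 3 high libraries, and below V581 the widest step lay between V531 and V478. The class means were 2.56 ± 0.62 (SD, n = 5) and 1.07 ± 0.37 (SD, n = 5), and the 5 libraries between them lay between 1.43 and 1.86. At the upper limit of the low class the ranking was nearly tied, with 1.4262 in V504 inside and 1.4274 in V490 outside. At the lower limit of the high class, V538 (1.95) was inside and V468 (1.86) outside. No p-value is given for the score or for any single cell cycle gene in the virgin libraries, because such genes chose the classes. The counts of called rows over all other genes include the cell cycle genes that are not in the score.

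**Figure D1:**
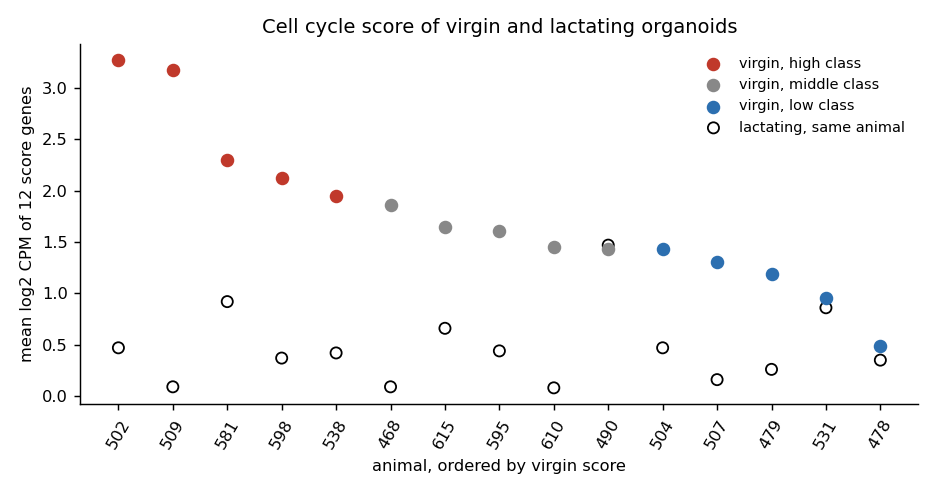
Cell cycle score (mean log2 CPM of the 12 score genes, y axis) of each animal's virgin library (filled points, coloured by class) and of its lactating library (open circles), with animals ordered by virgin score on the x axis. The virgin score runs from 3.27 in V502 to 0.49 in V478, while the lactating scores show no such order; the 2 stages were scaled separately, so that their levels are not on 1 scale.

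Total counts were 21751500 to 60114500 in the high and 20128400 to 44707300 in the low class, and TMM factors were 0.915 to 1.15 and 0.709 to 1.074. With rows of identical counts taken once, the totals were 15480142 to 38794104 and 12477568 to 28561596. V479 of the low class had only 892 reads in the score genes, against 2384 to 10896 in the other libraries of both classes. It also had the smallest total (20128400) and the lowest TMM factor (0.709) of all virgin libraries. Several libraries stood apart from the rest of their class. V502 held far more fibroblast and matrix RNA than any other virgin library, V509 far more milk protein RNA, V581 more ESR1 and luminal keratin RNA than the rest of the high class, and V479 more ribosomal protein and glycolysis RNA than the rest of the low class. The values stand with the results they touch. In the labels, the animal number of 1 high and 3 low libraries is followed by a letter whose meaning they do not give. The organoids carried the defining epithelial markers in every library of both classes: EPCAM, a surface protein of epithelia, ranged from 229 to 482 CPM in the high and from 335 to 965 CPM in the low class, and KRT14, a basal cell keratin, from 352 to 1989 and from 456 to 3285 CPM.

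TOP2A, the most familiar of the score genes as a mark of dividing cells, separated the classes, which had been ranked in part on it. It stood at 30.8 CPM in V502, 27.8 in V509, 13.5 in V581, 8.62 in V598 and 7.52 in V538, and at 1.51 in V478, 2.63 in V531, 2.73 in V479, 3.88 in V507 and 3.71 in V504. No high library overlapped with a low one, and the middle libraries, at 4.73 to 9.80 CPM, filled the space between. Its means were 17.6 ± 10.9 and 2.89 ± 0.955 CPM (SD, n = 5 each), a log2 difference of 2.61 ± 0.46 (SE; high minus low here and throughout).

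The cyclins differed among themselves. CCNA2, which drives S phase and early mitosis, was measured at 5.15, 4.84, 2.35, 1.87 and 0.867 CPM in the high class in score order, and at 0.280 to 0.642 CPM in the low class (log2 difference 2.74 ± 0.54). CCNB1, the main mitotic partner of CDK1, was at 1.45 to 5.50 against 0.328 to 0.855 CPM (2.35 ± 0.48). Neither cyclin overlapped between the classes. CCNB2, the other B-type cyclin, was nearly level, at 23.8 to 34 against 23.0 to 36.5 CPM (0.04 ± 0.24).

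CCNB2 and PLK1 are poor measures of the cycle in this table. PLK1, with a log2 difference of 0.06 ± 0.25, was as level as CCNB2, at 31.1 to 40.3 CPM in the high and 22.5 to 43.5 CPM in the low class. Their rows were counted over loci 5.36 (CCNB2) and 5.37 (PLK1) times as long as the RefSeq gene and held the same counts as another row each, so that reads of neighbouring genes may be joined in (here called joined rows). The differences of these 2 rows say little about the 2 genes. With both left out of the score, the high class was the same 5 libraries, and V490 took the place of V504 in the low class.

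RRM2, a subunit of the enzyme that makes deoxynucleotides, was at 3.77 to 12.6 CPM in the high and 0.492 to 1.95 CPM in the low class (2.45 ± 0.47). TPX2, a spindle assembly factor, was at 4.68 to 16.6 against 1.71 to 3.61 CPM (2.09 ± 0.43), BUB1 at 1.41 to 6.73 against 0.802 to 1.38 CPM (1.69 ± 0.46) and CDK1 at 6.66 to 15.2 against 2.36 to 5.86 CPM (1.3 ± 0.36). None of these 4 genes overlapped between the classes. In all, 7 of the 12 score genes did not overlap, beside 0.557% of all other rows. The libraries were ranked on these genes, so nothing is read from their separation. The other 3 score genes overlapped. NUSAP1, a microtubule binding protein, was at 4.30 to 11.1 against 1.64 to 4.43 CPM (1.22 ± 0.39), and AURKA at 0.939 to 3.14 against 0.427 to 2.03 CPM (0.83 ± 0.49). FOXM1 was low throughout, at 0.220 to 1.19 CPM in the high class and 0 to 0.560 CPM in the low class, where V478 had no read (1.80 ± 0.77).

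**Figure D2:**
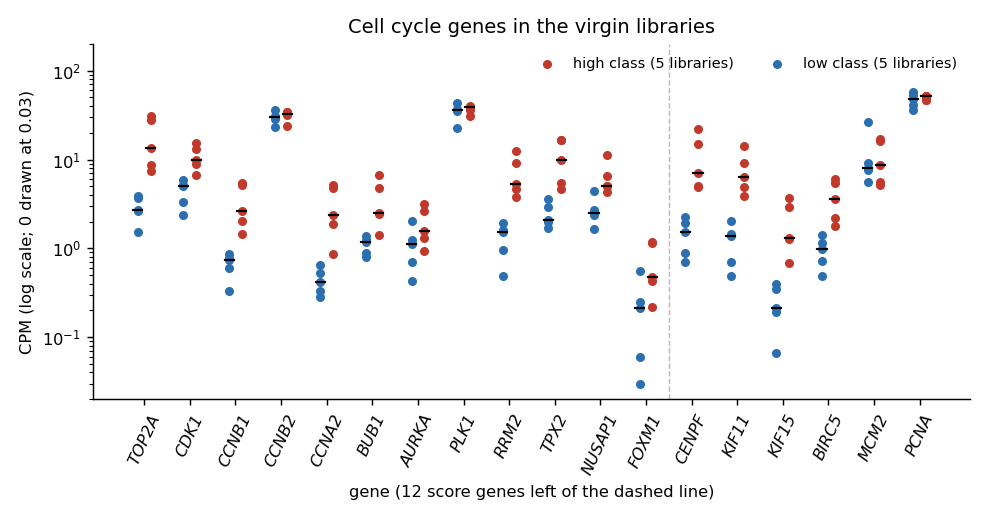
CPM (log axis, a value of 0 drawn at 0.03) of the 12 score genes and of 6 other cell cycle genes in the 5 high (red) and 5 low (blue) virgin libraries, each point 1 library and each black tick a class median. TOP2A, CCNB1, CCNA2, CENPF, KIF11 and KIF15 separate without overlap, whereas CCNB2, PLK1, MCM2 and PCNA sit at like levels in both classes.

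The other genes of mitosis followed the score genes. Of 50 tested members of a list of mitosis genes that were not in the score, 48 had a log2 difference above 0 and 35 one above 1, with a median of 1.53 beside -0.03 over all rows tested. In 14 of them all 5 high libraries lay above all 5 low ones, a pattern that 0.557% of all other rows showed; since these genes belong to the programme that chose the classes, nothing is read from this. Members not in the table (MKI67 among 5) are not analysed here. The 2 members below 0 were CKS1B (-0.10), a small CDK partner, and NCAPH (-0.16), a condensin subunit. CKS1B, NCAPH and MAD2L1 (0.93) were the 3 members with rows joined to a neighbour or to a longer locus, with a median of -0.10, against 1.57 for the rest.

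KIF15 and CENPF had the widest differences of the list. CENPF, a kinetochore protein, stood at 21.8, 15.0, 4.88, 7.10 and 4.99 CPM in the high class in score order and at 0.700 to 2.23 CPM in the low class (2.86 ± 0.53). KIF15, a spindle motor, was at 0.689 to 3.70 against 0.0657 to 0.401 CPM (3.03 ± 0.60). KIF11, the motor that pushes the spindle poles apart, stood at 9.22, 14.3, 4.88, 6.28 and 3.90 against 0.492 to 2.01 CPM (2.66 ± 0.49). BIRC5, a subunit of the chromosomal passenger complex, was at 1.78 to 5.97 against 0.484 to 1.40 CPM (2.01 ± 0.46). The 2 top libraries were highest for all 4 genes, and the list's median was 1.35 without V502 and 1.02 without V502 and V509. With both of them left out, 48 of 50 members were still above 0.

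DNA replication genes had smaller differences between the classes. Of 50 tested members 37 were above 0, 7 were above 1 and 2 did not overlap, beside 5.38% and 0.557% of all other rows, and again nothing is read from these counts. The median was 0.33, or 0.18 without V502 and V509. FANCD2, of the Fanconi repair pathway that protects replication forks, was at 2.86 to 7.70 against 0.624 to 1.33 CPM (1.95 ± 0.40), and its partner FANCI at 2.86 to 4.93 against 1.57 to 2.57 CPM (0.91 ± 0.32). CLSPN, a replication checkpoint mediator, overlapped at 0.720 to 3.47 against 0.350 to 0.722 CPM (1.72 ± 0.49). MCM2, a subunit of the replicative helicase, was at 8.74, 16.1, 16.9, 5.55 and 5.12 CPM in the high class, and V479 of the low class had the highest value of all 10 at 26.2 CPM (-0.07 ± 0.46, and 0.46 without V479). PCNA, the clamp of the polymerases, was level at 47.0 to 52.3 against 35.7 to 57.3 CPM (0.07 ± 0.23). When the libraries were ranked by this list, V479 moved from the low to the high class in place of V598.

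G1 regulators and inhibitors of the cycle were level as a list, with a median of 0.02 and 14 of 25 members above 0. CDKN2C, an inhibitor of CDK4 and CDK6 that is itself made by cycling cells, was at 0.807 to 3.49 against 0.0907 to 1.05 CPM (1.25 ± 0.62), and CCND2, a G1 cyclin, at 4.51 to 11 against 2.00 to 6.72 CPM (0.73 ± 0.38). CDKN1A, the p21 inhibitor induced by p53, was at 96.9 to 435 CPM in the high class and 149 to 453 CPM in the low class apart from V479 with 1445 CPM (-1.02 ± 0.52, and -0.40 without V479). Its row shares its counts with another row. CCND1 (a joined row) had a log2 difference of -0.34 ± 0.32 and CDKN1B of -0.06 ± 0.28, and the list of p53 target genes had a median of -0.02. Chromatin proteins of dividing cells were also nearly level, with a median of 0.08, and EZH2, the methyltransferase of Polycomb, had a log2 difference of 0.77 ± 0.37.

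Across all other genes the comparison gave no call. Of 13279 rows other than the score genes, 0 (0%) had an edgeR quasi-likelihood adjusted p under 0.05, and the smallest adjusted p was 0.248. At an unadjusted p under 0.05 there were 728 rows (5.48%), of which 516 (3.89%) were higher and 212 (1.6%) lower in the high class. All 5 high libraries lay above all 5 low ones in 74 rows (0.557%) and below them in 24 (0.181%). The log2 difference was above 1 in 715 rows (5.38%) and below -1 in 259 (1.95%). The biological coefficient of variation among these libraries was 0.494. In counts simulated for this design, 50 genes each were changed 1.5-, 2-, 4- and 8-fold, all from rows with a mean count over 50. Of these, 37 of 50 changed 4-fold and 2 of 50 changed 2-fold were recovered. A 2-fold difference was thus seldom detectable with these 10 libraries. Recovery for rows of lower count, or with fewer changed rows, was not simulated. DESeq2 called 80 rows (0.602%) on the same libraries, 66 higher and 14 lower; 20 of them were in the cell cycle lists, and nothing is read from those 20. A slope on the score over all 15 virgin libraries called 226 rows (1.64%) in edgeR. It called 30 (0.217%) without V502 and 0 (0%) without V502 and V509. The cell cycle lists held 31 of the 226 and 17 of the 30, and nothing is read from those. Genes of cell division outside the lists, such as PCLAF, were also among the 30. With the letter of the title as a covariate 0 rows were called, and the medians of the mitosis, fibroblast and luminal lists were 1.45, 1.87 and -0.54.

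The rows with the smallest p outside the fixed lists included further genes of cell division, chosen here after their values were seen. PCLAF, which binds PCNA, was at 1.58 to 7.58 against 0.295 to 0.688 CPM (2.95 ± 0.53). KIF14, a motor of cell separation, was at 0.683 to 2.00 against 0.138 to 0.328 CPM (2.45 ± 0.49). The classes did not overlap for either gene.

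Fibroblast and matrix transcripts had the highest median log2 difference of the 26 lists with tested members. All 18 members were above 0, 14 were above 1 and the median was 2.16, but no member separated the classes without overlap and 0 of 18 passed the edgeR test. The summed level of the list was 33373 CPM in V502, 1961 to 4150 CPM in the other high libraries and 608 to 2726 CPM in the low class. COL1A1, a chain of type I collagen, was at 7452 CPM in V502, 160 in V509, 611 in V581, 365 in V598 and 154 in V538, and at 19.1 in V478, 15.0 in V531, 208 in V479, 241 in V507 and 89.3 in V504 (4.00 ± 1.18, edgeR adjusted p = 0.536). COL3A1, the chain of type III collagen, was at 9943 CPM in V502, 408 to 781 CPM in the other high libraries and 35.1 to 482 CPM in the low class (3.65 ± 1.02, adjusted p = 0.491). V502 lay far above the other 9 libraries for both collagens, and the lowest levels were in V478 and V531, which also had the lowest scores. In bulk RNA, more cells of a type and more RNA per cell cannot be told apart.

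Without V502 all 18 fibroblast members remained above 0, and the median was 0.99. COL1A1 then had a log2 difference of 1.53 and COL3A1 of 1.57. On the slope over 15 libraries, 10 of the 18 were called beside 1.64% of all other rows, and 0 of the 18 without V502. LUM, a small proteoglycan of collagen fibres, was at 524 CPM in V502, 25.7 to 77.8 CPM in the other high libraries and 2.51 to 46.5 CPM in the low class (3.06 ± 0.88, adjusted p = 0.517; 1.65 without V502). VIM, an intermediate filament of mesenchymal cells, was at 1797 CPM in V502 and otherwise at 233 to 426 against 98.9 to 796 CPM (1.08 ± 0.61, adjusted p = 0.89).

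**Figure D3:**
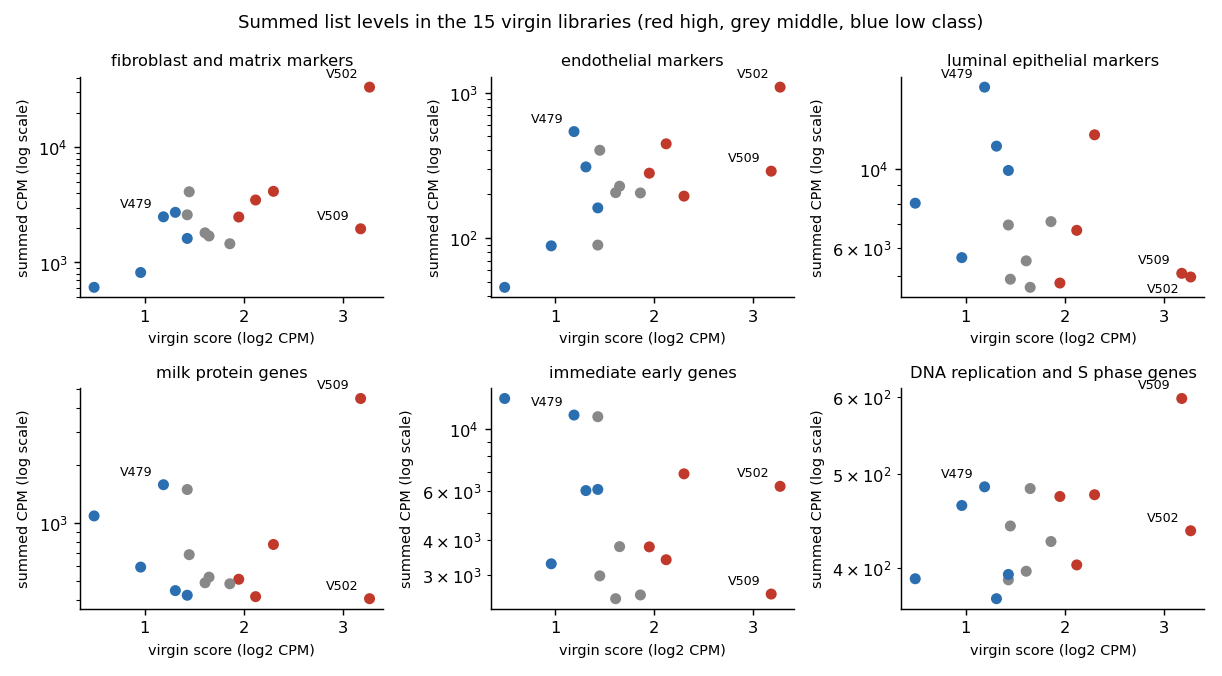
Summed CPM (log axis) of 6 gene lists in each of the 15 virgin libraries against the score, coloured by class. V502 lies far above the other libraries for fibroblast and matrix markers (33373 CPM), V509 for milk protein genes (4458 CPM), and V479 is the highest of all for luminal markers (17006 CPM).

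Outside the list, some matrix or secreted genes did separate the classes without overlap, among the 74 rows (0.557%) of all other genes that lay higher in this way. Rows of other kinds did so too, such as GBP5 (1.88) and TLR4 (1.25). GBP5, TLR4, FAM198B and the 4 matrix or secreted genes below were chosen after their values were seen. OGN, a small proteoglycan, was at 147 CPM in V502 and 11.4 to 19.0 CPM in the other high libraries, against 0.361 to 5.60 CPM (3.71 ± 0.88, adjusted p = 0.41; 2.15 without V502). ECM2, a matrix protein, was at 187 and 36.5 to 47.2 against 6.59 to 25.9 CPM (2.47 ± 0.54, adjusted p = 0.34; 1.67 without V502). ASPN had a log2 difference of 3.63 ± 0.85 and ANGPTL1 of 3.32 ± 0.76, each with an edgeR adjusted p of 0.41. FAM198B, a Golgi membrane protein, separated with little part of V502, at 38.3 CPM there and 16.7 to 24.2 CPM in the other high libraries against 7.58 to 10.3 CPM (1.34 ± 0.29, adjusted p = 0.324; 1.09 without V502), although the middle libraries, at 5.93 to 26.9 CPM, spanned both classes. DESeq2 called ANGPTL1 (adjusted p = 0.000808) and FAM198B (adjusted p = 0.00544), and gave no adjusted p for COL1A1, COL3A1, OGN, ASPN and ECM2.

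Endothelial transcripts leaned the same way, with all 16 members above 0, a median of 1.09 and 0 called. Their summed level was 1089 CPM in V502, 194 to 444 CPM in the other high libraries and 45.8 to 539 CPM in the low class, where V479 was highest. TEK, the angiopoietin receptor, was at 18.7, 2.91, 1.97, 8.15 and 5.68 CPM in the high class and at 1.05 to 3.56 CPM in the low class (1.88 ± 0.59, adjusted p = 0.543). ROBO4 had a log2 difference of 2.19 ± 0.81 (adjusted p = 0.706) and PECAM1, a junction protein of the vessel wall whose row is joined, of 1.17 ± 0.56 (adjusted p = 0.881). The median was 0.45 without V502, with 11 of 16 above 0, and 1.74 without V479. CLDN5, EGFL7 and SOX17 had no read in at least 1 library.

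HGF, TGFB3 and IGFBP5 were among the larger differences of the growth factor list, whose median was -0.06. FGF10, IGF1, EGF, IGFBP3 and ERBB4 of the list had no row and were not analysed here. HGF, a factor that stromal cells send to the epithelium, was at 16.4 CPM in V502, 0.911 to 4.21 CPM in the other high libraries and 0.121 to 1.5 CPM in the low class (3.14 ± 0.95, edgeR adjusted p = 0.536; 1.76 without V502). DESeq2 called it (adjusted p = 0.029), as did the edgeR slope (adjusted p = 0.0174), but not without V502 (adjusted p = 1). TGFB3 (1.39 ± 0.51, adjusted p = 0.70) and IGFBP5, a binding protein of insulin-like growth factors (1.41 ± 0.60, adjusted p = 0.842), were at most 36.0 and 474 CPM, both in V502. On the slope, IGFBP5 was at 1.01 per score unit, and at 0.20 without V502. Of the receptors, EGFR was at -0.13 ± 0.35, FGFR2 at -0.13 ± 0.34 and IGF1R at -0.37 ± 0.25. These receptors were chosen outside the naming rules. A contrast of stromal factors with epithelial receptors was not tested.

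Adipocyte markers had a median of 0.83 with 7 of 8 members above 0 and summed levels of 102 to 435 against 87.7 to 176 CPM. ADIPOQ, the adipocyte hormone, was at 0.434 to 2.40 against 0.272 to 0.880 CPM (1.31 ± 0.51, adjusted p = 0.769). Macrophage and monocyte markers had a median of 0.42 (1.01 without V479 and 0.23 without V478), with summed levels of 58.9 to 130 against 43.2 to 156 CPM, and CD163, a scavenger receptor, was at 10.1 CPM in V502 and 0.0457 to 1.03 CPM in the other high libraries (3.47 ± 1.33, adjusted p = 0.738; 0.85 without V502). Lymphocyte markers (median 0.06, summed levels 10.1 to 45 against 14 to 53 CPM), plasma cell markers (-0.01, 113 to 228 against 85.9 to 427 CPM) and neutrophil markers (-0.18, 6.27 to 24.5 against 6.95 to 64.6 CPM) lay near 0 and overlapped widely. The red blood cell markers listed had no row and were not analysed here. The part of these other cell types in the differences between the classes was not tested.

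**Figure D4:**
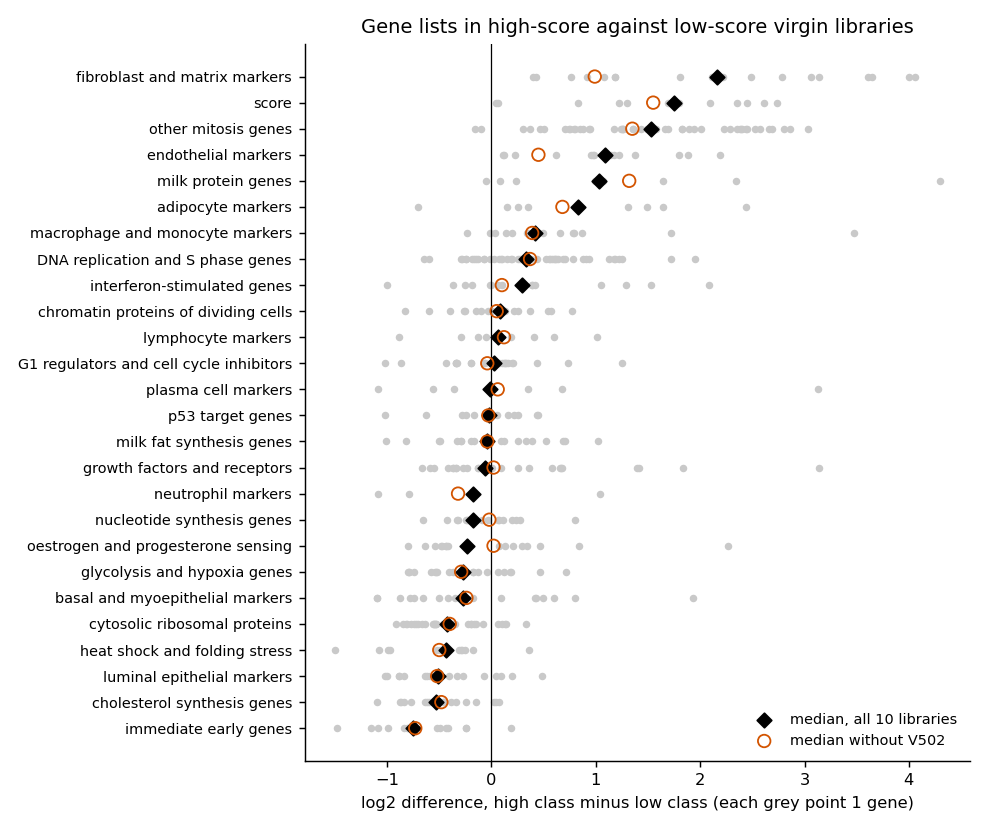
Log2 difference (high minus low class, x axis) of every tested member (grey points) of the 26 lists with tested members, with the list median from all 10 libraries (black diamonds) and without V502 (open circles). Fibroblast and matrix markers fall from a median of 2.16 to 0.99 without V502, while the other mitosis genes go from 1.53 to 1.35.

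Luminal epithelial markers tended to lower levels in the high class, with 4 of 17 members above 0 and a median of -0.51; none passed the test. CDH1, the adhesion protein of epithelia, was at 545, 651, 749, 819 and 801 CPM in the high class in score order and at 863, 1131, 952, 1289 and 1193 CPM in V478, V531, V479, V507 and V504 (-0.62 ± 0.25, edgeR adjusted p = 0.78). It did not overlap between the classes, and V502 was its lowest library. KRT7, a luminal keratin, was at 431 to 1238 against 651 to 2622 CPM (-0.89 ± 0.39, adjusted p = 0.853) and CLDN4, a tight junction protein, at 574 to 2545 against 820 to 5252 CPM (-1.02 ± 0.48, adjusted p = 0.881). KRT8 (-0.41 ± 0.60) and KRT18 (0.04 ± 0.71) turned on V581, whose 2953 and 1441 CPM were the highest of all 10, and without V581 they had log2 differences of -1.42 and -1.46. The list's median was -0.84 without V581 and -0.40 without V479.

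Basal and myoepithelial markers were mixed, with a median of -0.27, which ran from -0.48 without V581 to -0.06 without V479. KRT14 (-1.10 ± 0.57, adjusted p = 0.89) and KRT5 (-0.74 ± 0.55, adjusted p = 0.898), keratins of the basal layer, were lower, and both were counted over joined loci. ACTG2, a smooth muscle actin, was at 0.657 to 62.7 against 0.558 to 15.1 CPM (1.93 ± 1.05, adjusted p = 0.89), and ACTA2 at 84.5 to 417 against 41.2 to 280 CPM (0.80 ± 0.53, adjusted p = 0.898). Both actins were highest in V502, and the ACTA2 row is joined.

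Steroid hormone sensing genes gave no common direction, with 8 of 17 above 0 and a median of -0.23, which ran from -0.51 without V581 to 0.02 without V502. ESR1, the oestrogen receptor, was at 36.9, 16.8, 321, 91.9 and 61.5 CPM in the high class and 79.2, 36.0, 52.0, 109 and 102 CPM in the low class (0.47 ± 0.63, adjusted p = 0.926; -0.54 without V581). The library with the second highest score, V509, had the lowest ESR1 of the 10 and V581 the highest. GREB1, an oestrogen target, was at 18.7 to 112 against 17.7 to 84.2 CPM (0.07 ± 0.55, adjusted p = 0.983). MYB, a transcription factor of hormone-sensing cells, was at 6.16 to 21.1 against 15.3 to 34 CPM (-0.80 ± 0.37, adjusted p = 0.881). PGR and WNT4 were not analysed here.

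Milk protein genes depended on V509 and V479. CSN2, which encodes beta-casein, was at 1454 CPM in V509 and 0.125 to 4.15 CPM in the other high libraries, and at 300 CPM in V479 and 0.846 to 4.83 CPM in the other low ones (2.34 ± 2.47, adjusted p = 0.922). PAEP, the whey protein beta-lactoglobulin, was at 890 CPM in V509 and 45.5 CPM in V479, and at most 2.20 CPM elsewhere in both classes (4.30 ± 2.68, adjusted p = 0.898). Without V509 the log2 differences were -5.54 and -4.58, and the list's median went from 1.03 to -0.99; without V479 it was 2.07. CSN3, the kappa-casein gene, was expressed in every library at 184 to 1006 against 248 to 741 CPM (0.08 ± 0.47, adjusted p = 0.977).

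Immediate early genes, which respond within minutes to growth signals and to handling of cells, were lower in the high class on average, with 1 of 15 above 0 and a median of -0.75, which was -0.36 without V478 and -0.44 without V479. FOSB was at 220 to 750 CPM in the high class, and at 2313 in V478, 303 in V531, 2221 in V479, 486 in V507 and 768 in V504 (-1.48 ± 0.56, adjusted p = 0.735). Its row is counted over a locus 2.85 times as long as the RefSeq gene, and is 1 of 6 joined rows of the list. The joined rows had a median of -0.92, against -0.44 for the other rows of the list. EGR1 was at 129 to 451 against 155 to 1575 CPM (-1.15 ± 0.55, adjusted p = 0.881). V478 and V479 were the highest for FOSB and EGR1, and V531, also of the low class, lay within the range of the high class. Heat shock and folding stress genes had a median of -0.44 (-0.26 without V478) and 1 of 15 above 0, with HSPB1, a small chaperone, at -1.08 ± 0.62 (adjusted p = 0.891).

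Genes of cholesterol synthesis and uptake were lower in the high class on average, with 3 of 23 above 0 and a median of -0.53 (-0.32 without V479), and none passed the test. SREBF2, the transcription factor of the pathway, was at 63.0 to 92.3 against 78.3 to 218 CPM (-0.60 ± 0.29, edgeR adjusted p = 0.881). Cytosolic ribosomal proteins had a median of -0.43, which was -0.07 without V479 and -0.84 without V581. Their summed level was 46753 CPM in V479 and 32372 CPM in V581, against 12727 to 21763 CPM in the other 8 libraries. Glycolysis and hypoxia genes had a median of -0.27 (0.07 without V479), nucleotide synthesis genes of -0.18 and milk fat synthesis genes of -0.04; without TMM factors, where the median of all rows was 0.23, they were 0.02, 0.11 and 0.23.

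Interferon-stimulated genes had a median of 0.29 and 12 of 17 above 0; the median was 0.10 without V502, 0.15 without V504, 0.16 without V531 and 0.18 without V581. RSAD2, the antiviral protein viperin, was at 4.04 to 17.2 against 2.56 to 5.74 CPM (1.29 ± 0.39, adjusted p = 0.536), IFIT1 (a joined row) had a log2 difference of 1.53 ± 0.51 (adjusted p = 0.592) and IFIT3 of 2.08 ± 0.73 (adjusted p = 0.651). JCHAIN, the joining chain of antibodies that plasma cells secrete, was at 37.5 CPM in V581 and 0.260 to 6.53 CPM in the other high libraries, against 0.272 to 2.14 CPM (3.13 ± 0.99, adjusted p = 0.543; 1.51 without V581).

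Of the genes lower in the high class, 3 are given here that were chosen after their values were seen. TEX101, best known as a germ cell surface protein, was at 0.131, 0.259, 0.0626, 0.264 and 0.195 CPM in the high class and 3.58, 0.484, 11.3, 1.5 and 1.32 CPM in V478, V531, V479, V507 and V504 (-4.19 ± 0.79, edgeR adjusted p = 0.248; -3.17 without V479). The classes did not overlap, and the middle libraries, at 0.0686 to 0.397 CPM, were near the high class. PPP1R1B, a phosphatase inhibitor, was at 0.802 to 2.15 against 2.75 to 17.9 CPM (-2.02 ± 0.51, adjusted p = 0.457; -1.34 without V479). LCN2, an antibacterial iron carrier, overlapped, at 6.74 to 30.7 against 14.1 to 894 CPM (-3.90 ± 0.92, adjusted p = 0.41; -2.46 without V479), and its row is counted over a locus 5.08 times as long as the RefSeq gene. DESeq2 called TEX101 (adjusted p = 3.02e-05), LCN2 (adjusted p = 0.0138) and PPP1R1B (adjusted p = 0.0154).

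Whether the difference between the animals was still present in lactation was asked in the 10 lactating libraries of the same cows, which the ranking had not used. The lactating score was 0.47 in L502, 0.09 in L509, 0.92 in L581, 0.37 in L598 and 0.42 in L538, and 0.47 in L504, 0.16 in L507, 0.26 in L479, 0.86 in L531 and 0.35 in L478. The classes overlapped fully, with a difference of 0.03 (exact two-sided permutation test, p = 0.849). Cell cycle RNA was low in these libraries, where 10 of the 12 score genes and 36 of 50 other mitosis genes passed the filter on counts. CCNB2 and PLK1, which are joined rows, were again part of the score. A lack of difference in this score therefore says little on whether the class difference persisted. Over the 15 animals with both libraries the virgin and lactating scores had Pearson's r = -0.13 (permutation p = 0.639) and Spearman's rho = 0.00 (permutation p = 0.995), and r was 0.06 without the animals of V502 and V509. In the family of 6 such correlations the adjusted p was 0.72 for each Pearson's r.

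No row passed the edgeR test in lactation. TOP2A in lactation was at 1.93 ± 0.633 CPM in animals of the high class and 1.46 ± 0.198 CPM in those of the low class (SD, n = 5 each; log2 difference 0.41 ± 0.25, edgeR adjusted p = 0.902), and RRM2 at 2.21 ± 0.559 and 1.99 ± 1.00 CPM (0.15 ± 0.31, adjusted p = 0.987). COL1A1 was at 169 ± 72.1 and 103 ± 43.4 CPM (0.72 ± 0.36, adjusted p = 0.874), and OGN at 13.9 ± 7.06 and 12.9 ± 5.47 CPM (0.10 ± 0.46, adjusted p = 0.997). Over all 12995 rows, 0 (0%) were called, 706 (5.43%) had an unadjusted p under 0.05, and the groups did not overlap in 63 rows (0.485%) in 1 direction and 61 (0.469%) in the other. DESeq2 called 1 row (0.0077%). Fibroblast and matrix markers had a lactating median of 0.41 with 16 of 18 above 0, other mitosis genes of 0.09 with 21 of 36, and DNA replication genes of -0.03.

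The difference between the stages was tested as an interaction of class and stage in all 20 libraries of the 10 animals. Of 13706 rows, 0 (0%) were called, with 709 (5.17%) at an unadjusted p under 0.05, and the smallest edgeR adjusted p was 0.647. With the animal as a block, 0 were called, 813 had an unadjusted p under 0.05 and the smallest adjusted p was 0.232. OGN (3.21) and ADGRF5 (1.90), an adhesion receptor of endothelium and other cells, were among the smallest p-values of that fit, each with an adjusted p of 0.232 for a class difference larger in the virgin stage, and were chosen after their values were seen.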

How the data were processed

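Read counts per gene were deposited by the authors as whole numbers without normalization, and RPKM values in a second table. The tools named are edgeR, featureCounts 1.5.2, StringTie 1.3.2, SAMtools and HISAT2 2.0 on build UMD3.1, per the submitters' processing notes; their settings: not given in the sources used here. Per the labels' protocols, libraries were strand-specific and poly-A selected. The RPKM of the authors served only to recover the locus length behind each row (from count over RPKM), which was compared with RefSeq gene lengths. A row over 2 times that length, or one that shares its counts with another of the 14084 rows, is called joined.

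The score used TMM-scaled log2 CPM with a prior count of 2 over the 15 virgin libraries, and 5 libraries formed each class. Rows passing filterByExpr (minimum count 10, minimum total 15; 13291 rows, all 12 score genes among them) were fitted in edgeR 4.0.16 (R 4.3.3) by glmQLFit with robust estimation and glmQLFTest, with Benjamini-Hochberg adjusted p under 0.05 as the limit. SE is the log2 difference over the root of F. DESeq2 1.42.0 was an alternative; its adjusted p was not given for 81 rows. Steps were tested on simulated counts (13116 rows).

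The score, classes and gene lists were chosen with earlier results of these data known. Named genes were the score genes, in each list the 3 smallest p-values, and a fixed set. The rule for further genes (called, not overlapping, outside the cell cycle lists) named 0, and those added after their values were seen are marked. Some list members, such as BIRC5, EGFR, FGFR2 and IGF1R, were named outside these rules. The animal pairs the stages, per the series design: after removal of class means, correlations between an animal's libraries were 0.0915 to 0.383 (mean 0.239; 9 of 10 over 0.1). Chi-square per degree of freedom was at least 102 between any pair of libraries of a class, so no pair agreed within sampling noise.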

Additional observations from a re-analysis of the deposited data

Results flagged for a closer look

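Of 114 groups of 5 libraries examined (list sums and single genes, in each class), 27 (23.7%) had a highest or lowest library whose gap to the nearest exceeded Dixon's limit. A rate of about 1 in 20 by chance holds only for independent groups of normally spread values. CPM are skewed and the groups share genes, so the 23.7% cannot be set against that rate. In the high class, V502 stood apart for the summed fibroblast and matrix markers (33373 CPM, others 1961 to 4150), endothelial markers (1089 CPM, others 194 to 444), COL1A1 (7452 CPM), COL3A1 (9943 CPM), OGN (147 CPM), ECM2 (187 CPM) and HGF (16.4 CPM). V509 stood apart for the summed milk protein genes (4458 CPM, others at most 774), CSN2 (1454 CPM) and PAEP (890 CPM). V581 stood apart for the summed luminal markers (12491 CPM, others 4784 to 6729), ribosomal proteins (32372 CPM, others 12727 to 15750), ESR1 (321 CPM) and JCHAIN (37.5 CPM), and as the lowest for CCNB2 (23.8 CPM).

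In the low class, V479 stood apart as the highest for the summed plasma cell markers (427 CPM, others 85.9 to 178), glycolysis and hypoxia genes (6943 CPM, others 2367 to 3234), ribosomal proteins (46753 CPM, others 14856 to 21763) and p53 target genes (2160 CPM, others 716 to 1044), and for MCM2 (26.2 CPM), CDKN1A (1445 CPM), CSN2 (300 CPM), PAEP (45.5 CPM), TEX101 (11.3 CPM) and LCN2 (894 CPM). The TMM factor of V479, the lowest of all virgin libraries (0.709), raised each of these CPM relative to unadjusted values. V478 stood apart as the lowest for FANCD2 (0.624 CPM, others 1.15 to 1.33) and V507 as the highest for ECM2 (25.9 CPM, others 6.59 to 11.9).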

How the results depend on the processing

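The count of 0 called rows in the virgin comparison was also 0 without normalization factors, with RLE factors, with no filter, with at least 1 CPM in 5 libraries, with each distinct row once, with the middle libraries as a group of their own, with 4 against 4 and 6 against 6 libraries, with library size or the title letter as covariate, with the score without CCNB2 and PLK1, without V502 and V509, and with each library left out in turn (0 to 0). It was 80 in DESeq2, 226 for a slope on the score over 15 libraries, and 30 for that slope without V502. Of these calls, 20, 31 and 17 were in the cell cycle lists, and nothing is read from those. Of the 226, 57 were also called by DESeq2 and 29 by the slope without V502. That slope without V502 and V509 gave 0. The settings without V502, V509 or both on the slope, without both libraries in the classes, and without CCNB2 and PLK1 in the score were chosen after seeing the data. In the lactating libraries DESeq2 called 1 row and the other settings 0. The causes were not tested. Leaving out the normalization factors moved the median of all rows from -0.03 to 0.23, and with it the medians of the lists of glycolysis (to 0.02), nucleotide synthesis (0.11), milk fat (0.23), growth factor (0.19), neutrophil (0.11), plasma cell (0.24) and p53 target genes (0.24), from below to above 0. The lactating score difference of 0.03 was -0.20 with 6 against 6 libraries, -0.19 without CCNB2 and PLK1 in the score, and -0.08 to 0.14 with 1 library left out; the correlation of the scores was 0.14 when the replication list served as score. With the animal as a replicate block the interaction had 0 calls, as it had without the block. Depth limits the score genes of lowest level, such as FOXM1, with no read in V478.

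For single genes, 2708 of the values under alternatives kept their direction and side of the limit, 51 passed the limit only there and 69 changed sign. With libraries left out in turn the log2 difference ran from -0.01 to 0.15 for CCNB2, -0.04 to 0.17 for PLK1, -0.35 to 0.46 for MCM2, -0.18 to 0.07 for CDKN1B, -0.34 to 0.62 for CDKN1C, -0.54 to 0.75 for ESR1, -0.43 to 0.44 for GREB1, -1.42 to -0.02 for KRT8, -1.46 to 0.37 for KRT18, -0.10 to 0.22 for KIT, -4.58 to 7.53 for PAEP, -0.11 to 1.97 for FABP3, -1.52 to 2.16 for MUC15, -5.54 to 6.59 for CSN2, -0.46 to 0.42 for CSN3 and -1.20 to 0.34 for HSPH1. Without normalization factors, MCM2 was at 0.22 and CDKN1B at 0.19. On the slope, MCM2 was at 0.17, CDKN1B at 0.03, GREB1 at -0.28 and KRT18 at -0.08. With 4 against 4 libraries, CCNB2 was at 0.00, CDKN1B at 0.04, CDKN1C at -0.01 and GREB1 at -0.58. With 6 against 6, CDKN1C was at -0.09, KRT18 at -0.10, KIT at -0.08, CSN3 at -0.09, CXCR2 at 0.50 and S100A9 at 0.01. With library size as covariate, MCM2 was at 0.13, GREB1 at -0.05, MUC15 at -0.54 and CSN3 at -0.28. With the title letter, CDKN1B was at 0.07, CDKN1C at -0.27, KRT18 at -0.33 and HSPH1 at 0.00. With the score without CCNB2 and PLK1, KRT18 was at -0.03, KIT at -0.15, CSN3 at -0.15, CXCR2 at 0.08 and S100A9 at 0.07. Without V502 and V509, CCNB2 was at -0.04, CDKN1C at -0.21, KRT8 at 0.05, KIT at -0.23, PAEP at -5.56, FABP3 at -0.30, MUC15 at -1.22, CSN2 at -7.61 and CSN3 at -0.29.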
